A study of Mus musculus with 4 samples.

Results

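The genes described here are 38 members of the Hippo pathway, with the TEAD transcription factors and a set of YAP/TAZ target genes, of 26822 genes measured. They were found as the rows of the expression table whose gene symbol equals a member's name, and all 38 were present. RNA-seq was performed on 4 libraries of endothelial cells (ECs), the cells that line blood vessels, sorted as viable CD31+/CD45- cells from collagenase-digested retina pairs of C57BL/6J mice at postnatal day 6 (P6), when the retinal vasculature is still growing. All 4 carry the treatment label control, no allele or agent is named, and the labels do not say which animals, or how many, went into each library. The libraries form 1 group, so the comparisons below are between related genes within the same libraries, and their p-values measure only the spread between these 4 samples, which may be technical.

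The Hippo pathway is a kinase cascade that restrains growth. Upstream kinases activate STK3 and STK4, which together with SAV1 activate LATS1 and LATS2 bound to MOB1 proteins, and LATS kinases phosphorylate the transcriptional cofactors YAP and TAZ (encoded by Yap1 and Wwtr1), which are then held in the cytoplasm or degraded. When the cascade is inactive, YAP and TAZ enter the nucleus and act mainly through TEAD factors, and in ECs they are required for vessel growth. Most steps of the pathway are encoded by several related genes. The main question asked of these data was which gene of each family prevailed in the retinal EC libraries.

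TEAD proteins bind the MCAT element, whose core reads CATTCC, or GGAATG on the opposite strand. Stretches of 30 bases around this core are shown for members on both sides of the pathway and at both ends of the expression range, because the core was found upstream of genes at very different levels. All were taken from RefSeq (GRCm38.p6), read 5′ to 3′ on the strand of the gene, with the core in capitals.
Wwtr1: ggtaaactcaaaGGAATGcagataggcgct
Yap1: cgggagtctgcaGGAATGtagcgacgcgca
Mob1a: tggccagaatagCATTCCtttaggagaaga
Wwc2: gggttaagctcaGGAATGtggcggcgagga
Ajuba: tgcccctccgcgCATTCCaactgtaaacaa
Vgll4: cgagtggggtggGGAATGctgagaaatgcc
Vgll3: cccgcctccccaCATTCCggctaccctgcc
Axl: ggaaattctacaGGAATGtttaccagaccc
Crim1: agggcgggggggGGAATGaggtaggatggg
Ankrd1: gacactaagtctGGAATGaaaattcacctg
Ccn1: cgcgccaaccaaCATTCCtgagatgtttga

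Counted from the RefSeq start of transcription, the first base of the core lay at -136 for Wwtr1 (chr3:57576029-57576058, minus strand) and at -141 for Yap1 (chr9:8004720-8004749, minus strand). For Mob1a it lay at -209 (chr6:83325818-83325847, plus strand), for Wwc2 at -94 (chr8:47990621-47990650, minus strand) and for Ajuba at -164 (chr14:54577808-54577837, minus strand). The positions were -82 for Vgll4 (chr6:114969268-114969297, minus strand), -63 for Vgll3 (chr16:65815114-65815143, plus strand), -233 for Axl (chr7:25788949-25788978, minus strand), -79 for Crim1 (chr17:78200157-78200186, plus strand) and -123 for Ankrd1 (chr19:36119950-36119979, minus strand). Some genes held further cores that are not shown, Wwc2 at -203 and -79, Ajuba at -186 and Ankrd1 at -210. Counted from another RefSeq start of Wwtr1, its core lay at -170. The RefSeq starts of Mob1a, Wwc2, Vgll4 and Ankrd1 lie inside the interval that the expression table gives for the gene. The 250 bases before these starts overlapped annotated exons over 143 bases for Mob1a, 250 for both Wwc2 and Ankrd1, and 0 for Vgll4, so that the cores shown for Wwc2 and Ankrd1 are exonic in GENCODE M21. Ccn1, a target gene outside the 38 members, held the core at -103 (chr3:145650071-145650100, minus strand). Of the 38 members, 29 had a promoter in the RefSeq table. The core lay on either strand in the 250 bases before a start in 14 of these (48.3%). So it did in 14.4% of all 27025 genes with such a promoter and in 12.7% of the 10946 detected ones. The 14 members include Vgll3 and Ankrd1, which were not detected. The share was 3 of 6 among member target genes and 11 of 23 among the other members. With the further target genes included it was 4 of 12 (33.3%), since Ccn1 held the core and F3, Igfbp3, Foxf2, Gadd45a and Tgfb2 did not. Vgll3 and Ankrd1, which were at or near 0 in the libraries, held it just as Wwtr1 and Vgll4 did. A match of 6 letters is a description of the sequence and does not show binding.

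Values were deposited as normalised read counts, and a gene was called detected at a mean of at least 10. To compare genes, values were divided by the summed length of a gene's exons in kilobases (kb), and such levels are called per kb throughout. Libraries summed to between 14843847 and 15017241 normalised read counts. For the label of the sort, 10 endothelial markers were examined, with summed values of 52755 to 54280 normalised read counts per library. All were detected, as were all photoreceptor (11), pericyte and smooth muscle (10) and progenitor and Müller glia (12) markers, so detection does not set them apart. Their median levels differed, at 1623 per kb for the endothelial markers, against 183, 20.1 and 190 for the other lists in this order. The leukocyte marker Ptprc (CD45) was listed at 11, 1, 1 and 0. Other retinal cell types were also present in the RNA. The 11 photoreceptor markers summed to 4909 to 6194 in libraries 1 to 3 and to 14590 in library 4, with all 11 highest in library 4, and the 10 pericyte and smooth muscle markers summed to 2049, 586, 2246 and 3801. Fewer cells of a type and less RNA per cell cannot be told apart in such bulk samples.

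Transcripts of nearly the whole cascade were detected in the libraries. Since RNA of other retinal cell types was also present, detection does not show that the ECs transcribed each member. Of the 38 members, 36 were detected, compared with 56.0% of all genes and 74.8% of protein-coding genes, and 19 had a mean of at least 1000 normalised read counts, compared with 19.7% of all genes and 30.3% of protein-coding genes. These counts exceeded the background shares. Per kb, however, the members lay near the middle of detected genes, with 19 of the 36 detected members above the median. Across the 38 members, of which 2 were not detected, the median level was 7.38 ± 0.15 (SD, n = 4) on the log2 scale per kb. That of all detected genes was 7.34 ± 0.01, and that of the 36 detected members 7.62 ± 0.08. The members' place depended on length, since as deposited their median was 10.00, against 9.10 for all detected genes. Among the members, levels differed by role. The 28 members not listed as target genes, Amotl2 among them, had a median of 267 normalised read counts per kb. The 10 target genes had a median of 42.8 per kb. This did not extend to target genes in general, since the 9 outside the members had a median of 298 per kb. The table's own pathway annotation marked 17 members with the KEGG Hippo term, and none of the 10 target genes was among them.

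**Figure D1:**
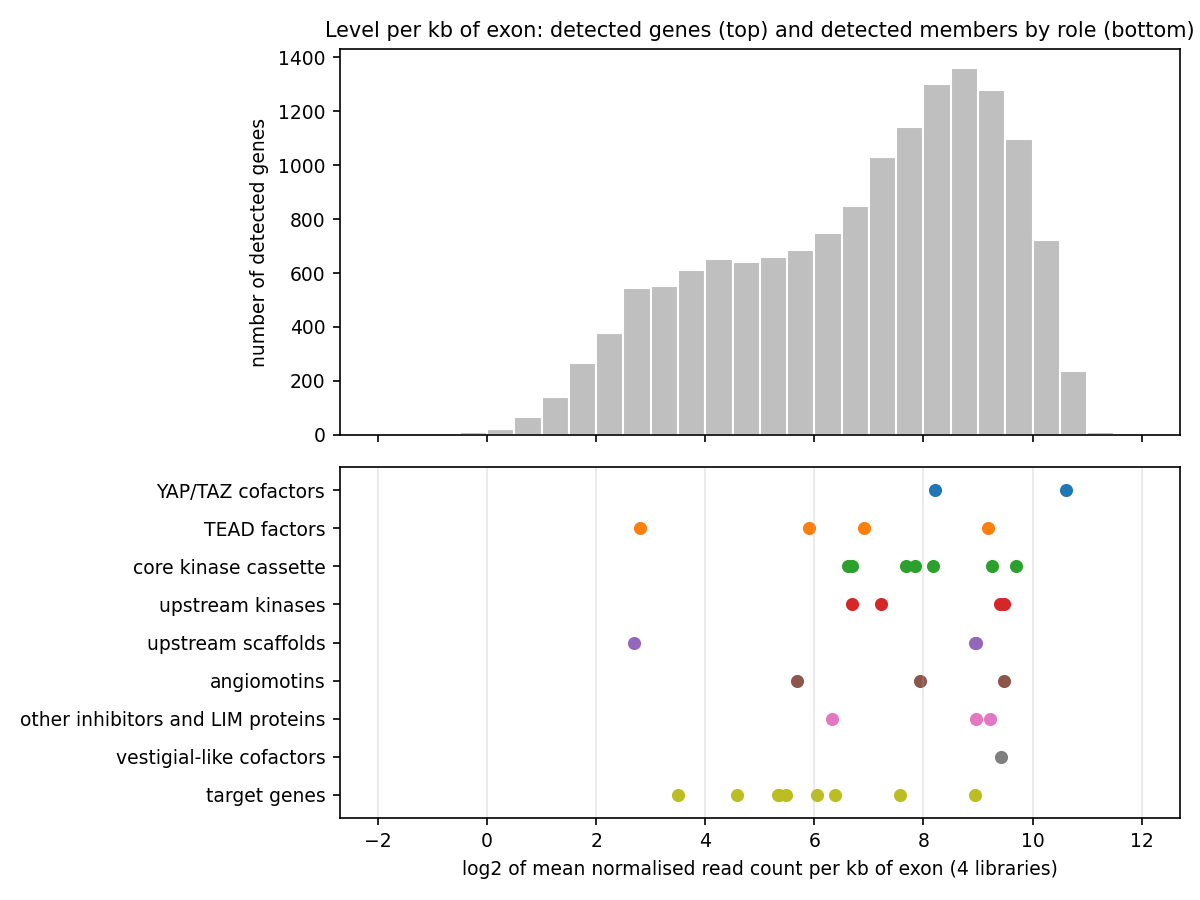
The top panel counts detected genes by log2 mean normalised read count per kb of exon, and the bottom panel places each detected member on the same axis by role, with 1 point per gene. Wwtr1 stands at the upper edge at 1568 per kb, while 7 of the 9 detected target genes lie below the detected median of 161 per kb.

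Of the transcriptional cofactors, TAZ was the prevailing transcript. Wwtr1 was at 7538, 7499, 7611 and 7320 normalised read counts in libraries 1 to 4, or 1568 ± 25.9 per kb (SD, n = 4). Yap1 was at 1198, 1322, 1315 and 1111, or 296 ± 24.3 per kb. The values did not overlap, and within each library Wwtr1 was 2.31 to 2.52 log2 units above Yap1 per kb. Wwtr1 thus supplied 84.1 ± 0.94% of the summed YAP/TAZ level per kb and Yap1 15.9 ± 0.94%. Wwtr1 varied little, with all 4 libraries between 1532 and 1593 per kb, and it was the highest of the 38 members. Its level lay near the 99th percentile of detected genes (1546 per kb), where levels lie close together. Whether this affected its spread, or its share and fold over Yap1, was not tested. Yap1 was the 14th member in the same order and lay at the 63.4th percentile of detected genes.

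The TEAD factors, which carry YAP and TAZ to DNA, were dominated by Tead2. Tead2 was at 2007, 2017, 2092 and 1999 normalised read counts, or 579 ± 12.2 per kb. It made up 75.6 ± 1.01% of the summed TEAD level per kb. Tead4 was at 427, 423, 470 and 416, or 121 ± 6.81 per kb, and contributed 15.8 ± 0.35%. Tead1 was at 619, 596, 689 and 497, or 59.7 ± 7.90 per kb, and contributed 7.77 ± 0.82%. The order of these 2 genes depended on length: per kb Tead4 was above Tead1 in 4 of 4 libraries, whereas in the values as deposited Tead1 was above Tead4 and its share of the family was 19.4%. Tead3 was the least of the family at 4, 25, 27 and 30 normalised read counts, 0.908 ± 0.50% of the summed level per kb, and library 1 alone lay below 25. Summed over the family, the TEAD level was 767 ± 26.6 per kb, compared with 1864 ± 47.5 per kb for Yap1 and Wwtr1 together.

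All 7 genes of the core kinase cassette were detected, and each family within it had a leading gene. Of the kinases homologous to fly Hippo, Stk3 (MST2) was at 1883, 1749, 1920 and 1854 normalised read counts, or 615 ± 24.4 per kb. Stk4 (MST1) was at 1400, 1674, 1519 and 1542, or 288 ± 21.1 per kb. Stk3 therefore held 68.1 ± 2.36% of the pair's level per kb. Their scaffold Sav1 was at 474, 513, 539 and 545, or 205 ± 12.8 per kb, below both kinases in every library. Of the kinases that phosphorylate YAP and TAZ, Lats2 was at 1395, 1465, 1423 and 1643, or 229 ± 17.2 per kb, and Lats1 was at 673, 810, 650 and 723, or 97.8 ± 9.71 per kb. Lats2 held 70.1 ± 2.12% of the LATS level per kb, with no overlap between the genes. The LATS activators were more uneven. Mob1a was at 3652, 3763, 3880 and 3398, or 833 ± 46.6 per kb, and was the second of all members in the order per kb, while Mob1b was at 913, 1046, 1011 and 741, or 103 ± 15.2 per kb. Mob1a held 89.0 ± 0.99% of the MOB1 level per kb. The summed LATS level, at 327 ± 22.2 per kb, was the lowest of the 10 families summed here, below those of STK3/STK4 (903 ± 15.1 per kb) and MOB1 (936 ± 61.2 per kb). This rank held per kb only. As deposited, Lats2 alone had a mean of 1481.5 normalised read counts, above Vgll4 at 1388, whose relative Vgll3 was at 0.

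**Figure D2:**
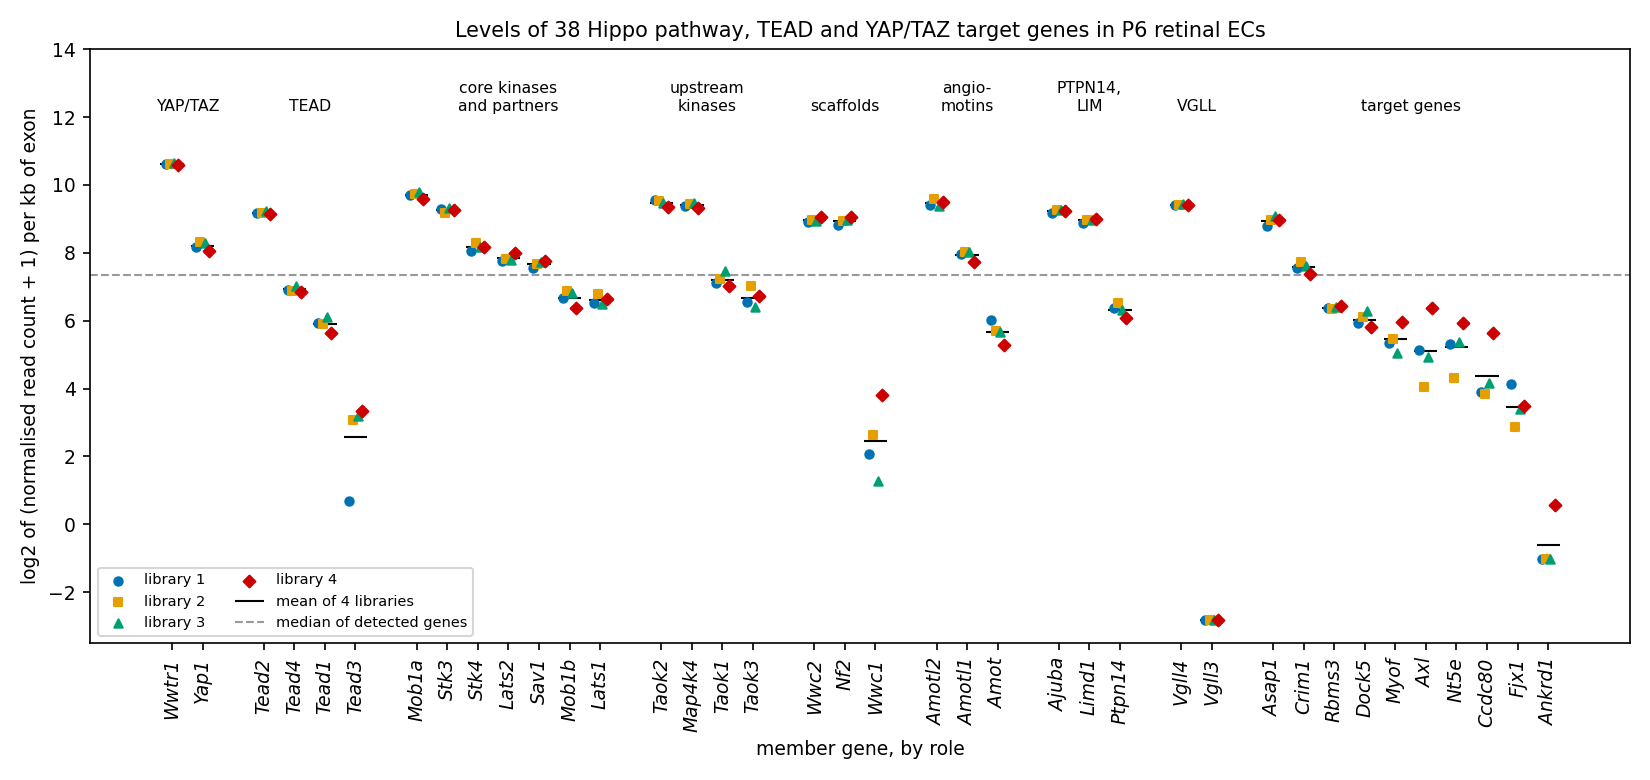
Each point is 1 library's level of 1 gene, as log2 of normalised read count plus 1 per kb of exon, with genes grouped by role, short lines for the mean of the 4 libraries and a dashed line for the median of detected genes. Within most families 1 gene stands apart from its relatives by more than the spread of the libraries, whereas Axl, Nt5e, Ccdc80, Tead3 and Wwc1 spread widely.

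The kinases acting above STK3 and STK4 or directly on LATS were also unequal. Taok2 was at 4986, 4856, 4659 and 4327 normalised read counts, or 711 ± 43.3 per kb. Taok1 was at 1712, 1847, 2213 and 1629, or 149 ± 20.8 per kb, and Taok3 at 491, 689, 448 and 558, or 103 ± 19.9 per kb. Taok2 held 73.8 ± 1.87% of the TAOK level per kb, and the difference between the other two was small, Taok1 lying 0.19 to 1.07 log2 units above Taok3 within libraries. Taok1 stayed the higher on average, but the values of the genes overlapped, when the longest transcript replaced the summed exons (mean log2 difference per kb 0.29, against 0.54) or a pseudocount of 10 replaced 1 (0.52). Map4k4, a kinase that phosphorylates LATS independently of STK3 and STK4, was at 4015, 4224, 4294 and 3896, or 676 ± 30.3 per kb, close to Taok2.

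Among the upstream scaffolds, Nf2, which encodes Merlin and brings LATS to the membrane, was at 2277, 2499, 2530 and 2705 normalised read counts, or 494 ± 34.7 per kb. Of the KIBRA family, which binds Merlin and LATS, Wwc2 was at 4181, 4310, 4286 and 4600, or 501 ± 20.7 per kb. Its relative Wwc1, which encodes KIBRA itself, was at 18, 27, 10 and 62. Wwc2 held 98.8 ± 0.90% of the summed level per kb, the most uneven share among the families in which every gene was detected. Nf2 and Wwc2 overlapped per kb.

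The angiomotins bind YAP and TAZ and hold them outside the nucleus, and Amotl2 is itself a YAP/TAZ target. Amotl2 was at 3031, 3409, 3002 and 3254 normalised read counts, or 711 ± 43.2 per kb. Amotl1 was at 2292, 2357, 2391 and 1936, or 245 ± 22.9 per kb, and Amot at 483, 379, 378 and 286, or 51.6 ± 10.9 per kb. The order Amotl2, Amotl1, Amot held in 4 of 4 libraries, with shares of 70.5 ± 2.94%, 24.3% and 5.12% of the summed level per kb. Amot (chromosome X, 145446425 to 145505181, minus strand, GRCm38) was highest in library 1 and lowest in library 4, where it lay 0.52 log2 units below the mean of the other three. Amotl2 (chromosome 9, 102716672 to 102733418, plus strand) did not share this order.

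Ptpn14, a phosphatase that retains YAP in the cytoplasm, was at 890, 978, 853 and 721 normalised read counts, or 80.1 ± 9.93 per kb. The LIM proteins Ajuba and Limd1, which sequester LATS, were 7.49 and 6.20 times as high per kb, respectively. Ajuba was at 1952, 2081, 2090 and 2024, or 600 ± 18.7 per kb, and Limd1 at 2283, 2436, 2450 and 2455, or 496 ± 17.0 per kb. This was the most even family, with 54.7 ± 0.44% of the pair's level per kb from Ajuba. Ajuba was the higher gene per kb in 4 of 4 libraries, but as deposited Limd1 was the higher, by 0.24 log2 units, since its exons span 4848 bases against 3397 for Ajuba.

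The vestigial-like proteins bind TEADs in place of YAP and TAZ, VGLL4 being known as a repressor of TEAD activity. Vgll4 was at 1375, 1380, 1413 and 1384 normalised read counts, or 684 ± 8.42 per kb, and its coefficient of variation of 1.23% was the lowest of the 36 detected members. Vgll3 was listed at 0 in all 4 libraries, so no fold is given. Per kb, Vgll4 (chromosome 6, 114860628 to 114969994, minus strand, GRCm38) was higher than each of the 4 TEAD genes in every library, including Tead2 at 579 per kb. The order of Vgll4 and Tead2 depended on length. As deposited, Tead2 was the higher in every library, at 1999 to 2092 normalised read counts against 1375 to 1413.

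**Figure D3:**
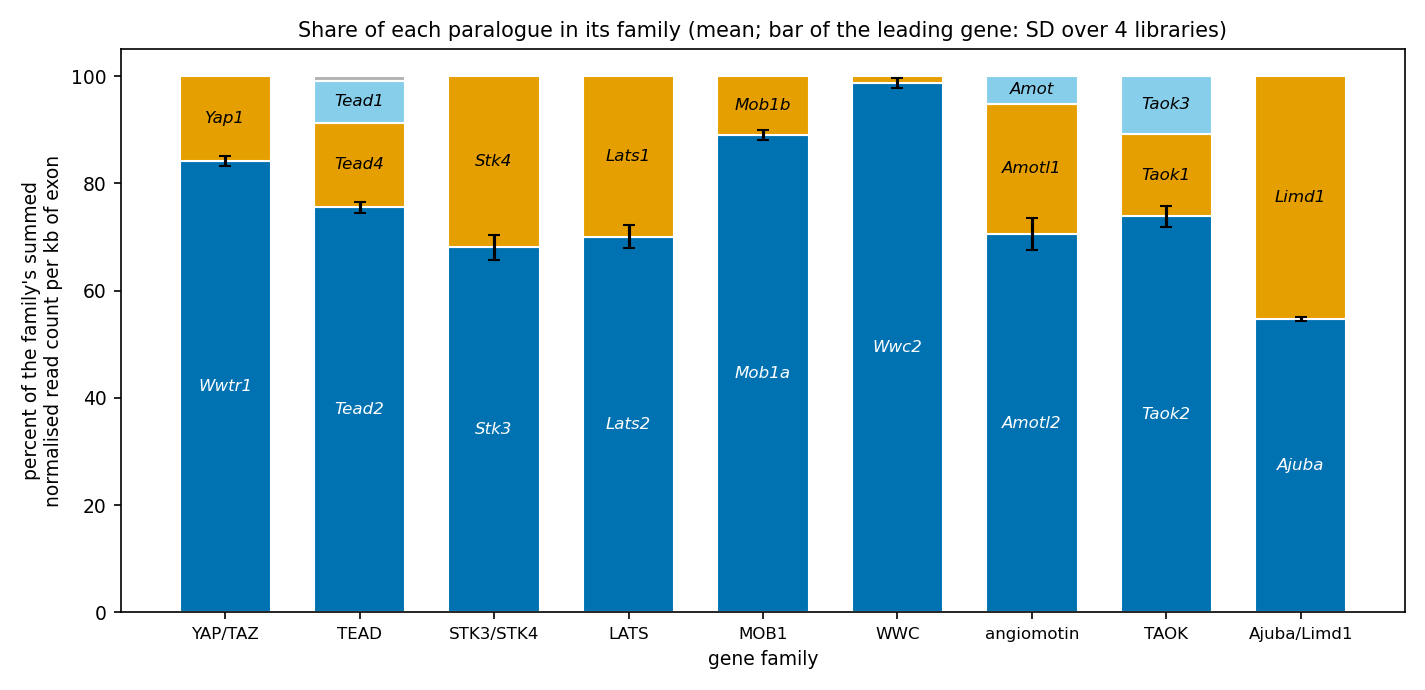
Bars divide each of 9 families' summed normalised read count per kb of exon among its genes, as the mean percent over 4 libraries, with the SD of the leading gene drawn. The leading gene supplies from 54.7% (Ajuba) to 98.8% (Wwc2), and the unlabelled slivers are Tead3 and Wwc1.

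The choice of gene within each family was tested in 19 pairs of related genes. In 19 of 19 pairs all 4 values of the higher gene lay above all 4 of the lower gene per kb, and each pair gave p = 0.0286 by the exact two-sided permutation test, the smallest p that 4 values against 4 allow (0.0286 also after Benjamini-Hochberg adjustment over the 19 pairs). By a sign-flip test within libraries, whose smallest possible p is 0.125, 0 pairs passed. The count has to be read against the background: of all pairs of detected genes, 89.0% did not overlap per kb (88.6% in the values as deposited, in which the 19 member pairs also did not), and of the 703 pairs that the 38 members form, 641 did not (91.2%). Non-overlap between related members was therefore about as common as between any genes, and the size of a difference says more than its test. Per kb these differences ran from 1.21-fold (Ajuba over Limd1) and 1.44-fold (Taok1 over Taok3), through 2.13-fold (Stk3 over Stk4), 2.34-fold (Lats2 over Lats1), 2.90-fold (Amotl2 over Amotl1) and 4.79-fold (Tead2 over Tead4), to 8.05-fold (Mob1a over Mob1b), 77.5-fold (Wwc2 over Wwc1) and 83.0-fold (Tead2 over Tead3). Sizes moved with length too. As deposited, the folds were 1.21 for Stk3 over Stk4, 1.41 for Amotl2 over Amotl1, 3.38 for Tead2 over Tead1 (9.70 per kb), 2.54 for Taok2 over Taok1 (4.77 per kb), 8.32 for Amotl2 over Amot (13.8 per kb), 3.96 for Mob1a over Mob1b, 3.39 for Taok1 over Taok3, 27.9 for Tead1 over Tead3 (8.56 per kb) and 149 for Wwc2 over Wwc1. The folds against Tead3 and Wwc1 rest on low values, and the log2 difference per kb between Tead2 and Tead3 ranged from 5.83 in library 4 to 8.46 in library 1.

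**Figure D4:**
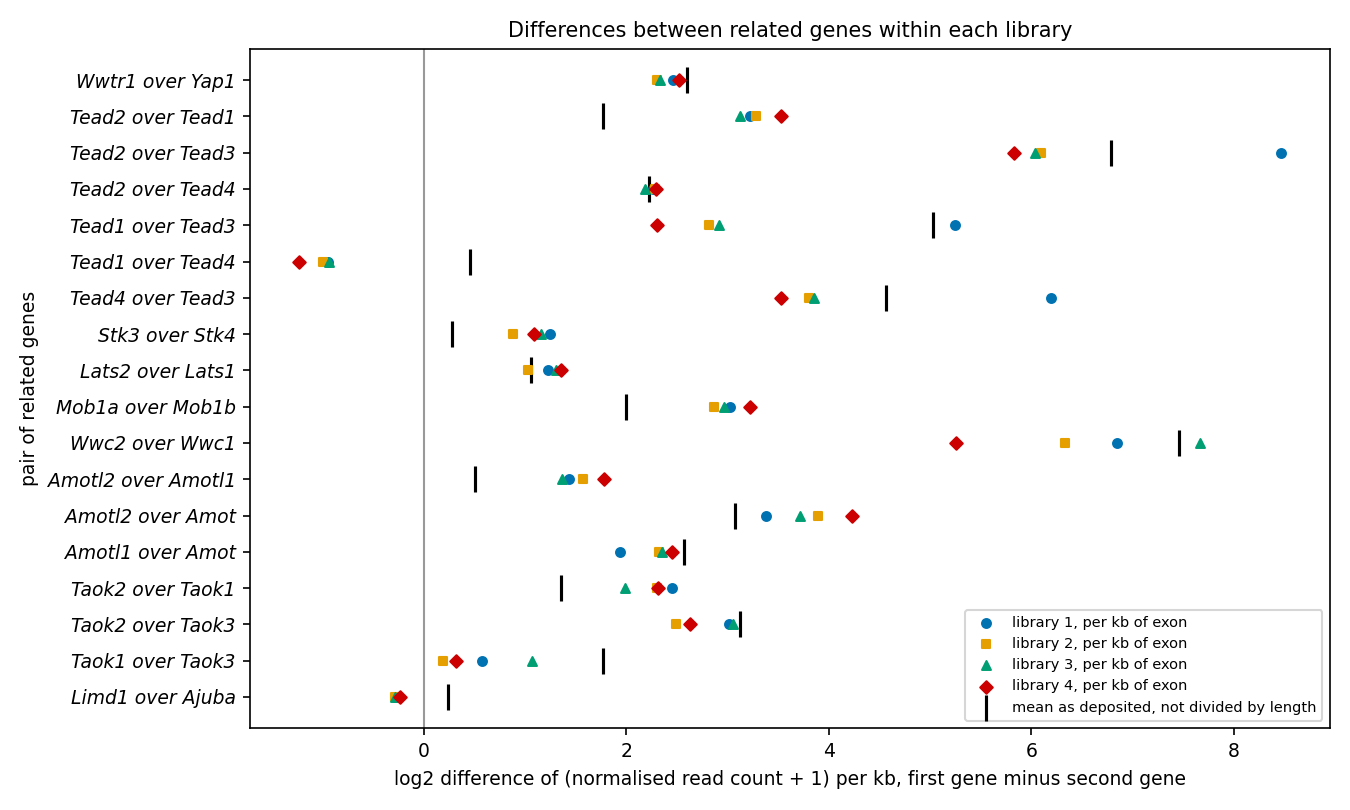
For each of 18 pairs, symbols give the log2 difference of normalised read count plus 1 per kb of exon in each library, and black ticks give the mean difference before division by length. Differences keep 1 sign in all 4 libraries, and the ticks lie across 0 from the symbols for Tead1 over Tead4 (0.46 against -1.03) and Limd1 over Ajuba (0.24 against -0.27).

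Many neighbours in the order per kb had overlapping values over the libraries. Of the 37 pairs of neighbours in this order, 28 overlapped. Wwtr1 stood alone, followed by Mob1a, each apart from the next. Amotl2, Taok2, Vgll4 and Map4k4 formed a chain of overlapping neighbours from 711 down to 676 normalised read counts per kb. Stk3, Ajuba and Tead2 formed the next, from 615 to 579 per kb, and Wwc2, Limd1, Asap1 and Nf2 another, from 501 to 494 per kb. Yap1 and Stk4 (296 and 288) overlapped each other and neither side. The step down was narrow, since the lowest Stk4 value was 263 and the highest Amotl1 value 261 per kb. As deposited, Amotl1 was above both, with a mean of 2244 against 1534 for Stk4 and 1236.5 for Yap1. Below Yap1 and Stk4 ran a chain of 9 genes from Amotl1 (245) to Lats1 (97.8). Another chain held 12 genes, from Rbms3 (83.7) to Wwc1 (6.46). Overlap was judged over all libraries, so neighbours could overlap and still keep 1 order within each library. Taok1, for example, was above Tead4 in every library, at 131 to 178 against 116 to 131 per kb. Levels at the top of the table lay close together: the 99th percentile of detected genes was 1546 normalised read counts per kb and the highest gene, Lrp8, was at 2854, while Actb was at 1705. Wwtr1, at the 99.1th percentile, fell in this crowded range, and what sets this upper range was not tested.

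Most target genes among the members were transcribed at low levels, and several varied between libraries. Asap1, a GTPase-activating protein for ARF GTPases, was at 2863, 3217, 3523 and 3225 normalised read counts, or 496 ± 41.7 per kb. Crim1, a transmembrane protein that binds BMPs, was at 1115, 1281, 1183 and 990, or 191 ± 20.4 per kb. These were the 2 member target genes above the detected median per kb. Rbms3, an RNA-binding protein, was at 676, 661, 701 and 713, or 83.7 ± 2.87 per kb, and Dock5, a Rac exchange factor, at 607, 689, 774 and 565, or 66.0 ± 9.26 per kb. Both sat below the detected median with modest spread. Myof, a membrane repair protein of the ferlin family, was at 291, 313, 235 and 443, and Nt5e, the ecto-enzyme CD73 that makes adenosine, at 159, 79, 163 and 241. Axl, a receptor tyrosine kinase for GAS6, was at 150, 70, 129 and 351. These 3 genes had like means per kb, of 44.8, 40.2 and 40.9, and all were highest in library 4. Ccdc80, an extracellular matrix protein, was at 60, 57, 72 and 201, or 23.9 ± 17.0 per kb. Fjx1, the homologue of a fly planar polarity gene, was at 54, 22, 32 and 34, and was the 1 detected member target gene highest in library 1. Ankrd1, a widely used YAP/TAZ target encoding a nuclear ankyrin repeat protein, was listed at 0, 0, 0 and 2 and was not detected.

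Target genes outside the 38 members had a higher median but also ranged widely. Of 9 such genes, 9 were detected, 6 lay above the detected median, and their own median was 298 normalised read counts per kb compared with 42.8 for the 10 member targets. The lowest, named after their values were seen, were Nuak2 at 48.4 per kb, Arhgef17 at 37.5 and F3 at 6.94, as low as the member targets. Foxf2, a forkhead factor of brain and retinal vessels, was at 1477 ± 6.39 per kb, Ccn1 (Cyr61) at 1420 ± 160 and Igfbp3 at 1389 ± 30.8. Ccn1 was at 2684, 2602, 2856 and 3324 normalised read counts, and Ccn2 (Ctgf) at 1847, 1672, 1867 and 1729, or 641 ± 33.8 per kb. The canonical targets thus spanned the whole range, from Ankrd1 near 0 to Ccn1 at the 98.1th percentile of detected genes.

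Of 54 symbols listed for further Hippo regulators, 51 were matched and 48 were detected. Means reached 1000 normalised read counts for 37 of them, with a median of 472 per kb. The highest per kb were Ywhae (1612 ± 17.0) and Ywhab (1415 ± 13.1), which encode adaptor proteins that retain phosphorylated YAP and TAZ in the cytoplasm, and Ppp2r1a (1534 ± 19.9), the scaffold subunit of the phosphatase PP2A that opposes STK3 and STK4. Not detected were Vgll1 (0, 0, 1 and 0 normalised read counts), Rassf5 (3, 15, 2 and 4) and Rassf6 (0, 0, 0 and 4). No entry was matched for the symbols Wwc3, Vgll2 and Pals1. Pals1 had been listed under its older symbol Mpp5 as well, and was analysed under that symbol.

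Of the 36 detected members, 21 (58.3%) had a coefficient of variation below 10% between libraries, beside 47.5% of all detected genes, without regard to level. Spread was then compared with that of all detected genes at the same level, and 1 member exceeded the trend at a robust z above 3, namely Axl at 4.17. This is 2.78% of detected members, beside 3.88% of all detected genes. Without library 2 no member exceeded it, without library 3 Axl and Ccdc80 did, and without library 4 Taok1 and Asap1 did. Of all detected genes, 4.40%, 4.45% and 3.03% exceeded it in these settings, respectively. Nt5e (robust z 2.40), Ccdc80 (2.29) and Myof (1.82) came next among the target genes. Members highest in library 4 and more than 1 log2 unit above the mean of the other libraries numbered 4, or 11.1% of those detected, beside 6.43% of all detected genes. They were Tead3 (1.01 log2 units above), Wwc1 (1.81), Axl (1.66) and Ccdc80 (1.67). At a mean of at least 50, Axl and Ccdc80 remained, beside 3.35% of all such genes. Without a size limit, 12 of the 36 detected members were highest in library 4 (33.3%, beside 30.6% of all detected genes) and 15 were lowest there (41.7%, beside 33.0%).

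The libraries in which these genes stood apart also differed in markers of other cell types. Axl, Nt5e and Ccdc80 were lowest in library 2 and highest in library 4, as was Rbms3 within its narrow range of 661 to 713 normalised read counts. These genes were picked for this order, and its share among all detected genes was not determined. Ccdc80 was at 57 in library 2, close to its 60 in library 1. Myof was also highest in library 4 but lowest in library 3, at 235. The summed level of the 10 pericyte and smooth muscle markers was lowest in library 2 and highest in library 4, at 586 and 3801 normalised read counts. Of these markers, 8 were highest in library 4 and 6 lowest in library 2. Pdgfrb, which defines pericytes, was at 238, 66, 342 and 676. The 11 photoreceptor markers were all highest in library 4, summing to 14590, and their sum was lowest in library 3, at 4909. The 6 astrocyte markers summed to 1171, 103, 832 and 687 and the 5 fibroblast markers found of 7 to 893, 136, 757 and 856, so that both lists were lowest in library 2, although Aqp4 was at 0 in all libraries and Col1a1 and Dcn were at or below 8. Pdgfra, which is in both lists, was at 763, 56, 487 and 553. The 10 leukocyte markers summed to 33 to 186, and the 12 progenitor and Müller glia markers to 8423 to 10672 with 8 highest in library 4. The part of these cells in the levels of Axl, Nt5e and Ccdc80 was not tested. The deviation of any library from the mean was at most 2.30% for Wwtr1, 3.12% for Tead2 and 10.1% for Yap1, and the endothelial marker sum varied from 52755 to 54280.

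**Figure D5:**
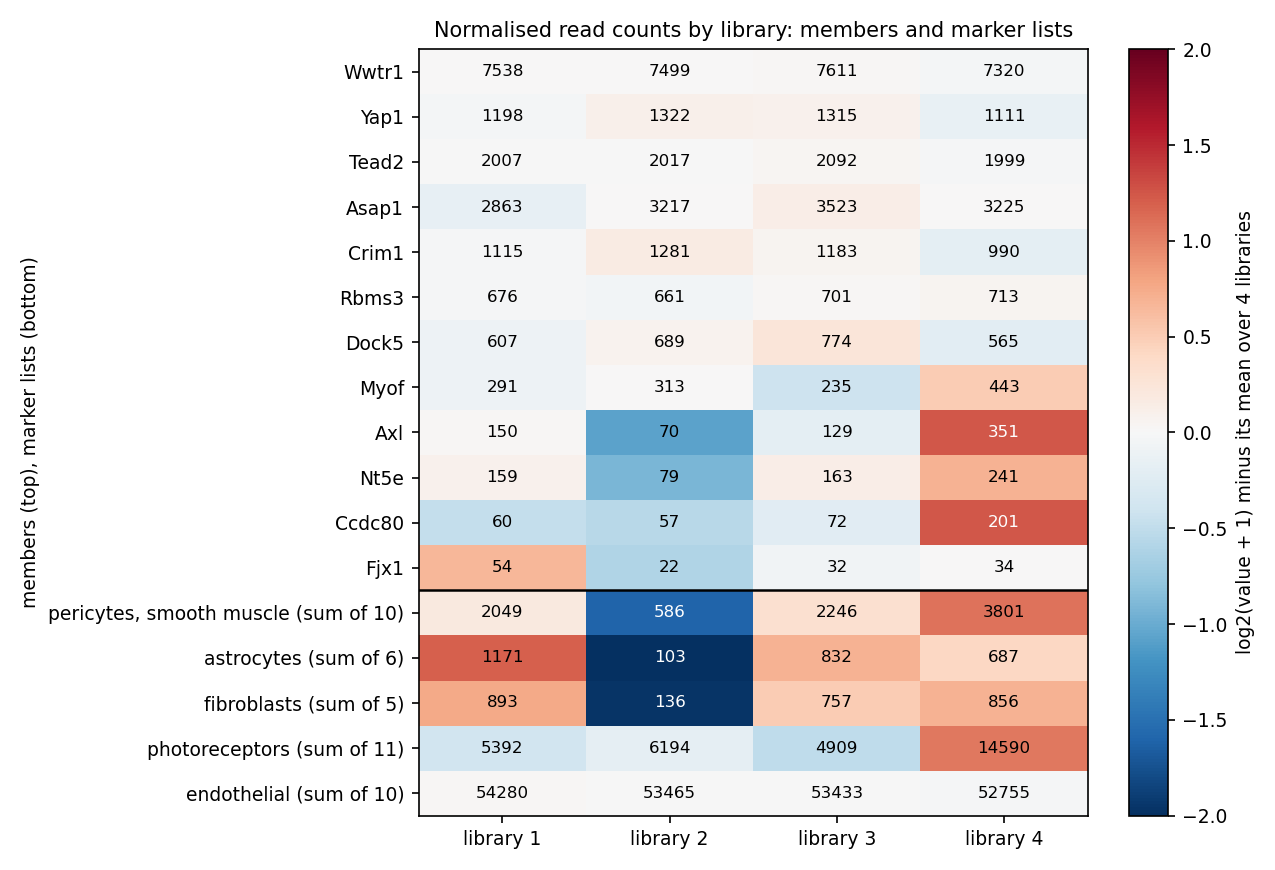
Each cell prints the normalised read count of a gene, or the summed count of a marker list, in 1 library, and its colour gives log2 of that value plus 1 minus its mean over the 4 libraries. Axl (70 and 351) and Nt5e (79 and 241) have their lowest and highest values in libraries 2 and 4, as does the pericyte and smooth muscle sum (586 and 3801), while Wwtr1 stays between 7320 and 7611. The photoreceptor sum is also highest in library 4 (14590) but lowest in library 3 (4909).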

How the data were processed

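RNA from sorted retinal ECs of 4 libraries was prepared with a stranded poly(A) kit and sequenced single-end (75 bases). Per the labels, FastQC was used. The aligner, the counting and the normalisation of the mouse libraries are not given in the sources used here, and the labels' RNA isolation text names HUVECs (human umbilical vein ECs). The authors deposited normalised read counts as rounded values, treated here as a score, since they are not raw counts and whole reads could not be recovered; depth in reads is therefore unknown and no count model was run. Low values bunch, with 560 genes at 9 in library 1 and 728, 751 and 741 at 6 in libraries 2 to 4. Of 26834 rows, 12 with repeated symbols were dropped.

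Exon lengths came from GENCODE M21 (GRCm38), in which 99.2% of the shared IDs had equal positions to the table, and 37 of 38 members did (not Rbms3). Of 15012 detected genes (mean of at least 10), 15000 had a length. Levels were log2 of value plus 1 per kb. The 19 pairs were compared by exact two-sided permutation tests (70 splits) with Benjamini-Hochberg adjustment at 0.05. Spread was compared with a lowess trend (fraction 0.2). The alternatives tried were other pseudocounts, minimums, lengths and scalings, no division by length, a sign-flip test and leaving out each library. Members and lists were chosen with earlier results of these data known. All 38 members are named, and of other pathway genes the 3 highest per kb, those not detected, Ccn1 and Ccn2; Ptprc, Pdgfrb and other defining markers are named beside marker sums. Scripts were tested on simulated data and run in Python 3.11.15 with numpy 2.4.6, pandas 2.3.3, scipy 1.17.1 and statsmodels 0.14.6.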

Additional observations from a re-analysis of the deposited data

Results flagged for a closer look

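Of 36 detected members, each tested for a library lying far from the other three by Dixon's criterion, 2 were marked, compared with 1.8 expected at the 1 in 20 rate of the criterion. Limd1 was at 2283 normalised read counts in library 1 and at 2436, 2450 and 2455 in the others. Ccdc80 was at 201 in library 4 and at 57, 60 and 72 in the others.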

How the results depend on the processing

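The counts of detected members (36) and of members with a mean of at least 1000 (19), and the 19 of 19 pairs apart, were the same when each library was left out in turn. Without division by length, 2 pairs turned direction, Tead1 over Tead4 to 0.46 and Limd1 over Ajuba to 0.24 log2 units, since the genes differ in exon length. By the sign-flip test 0 pairs passed, since 4 libraries cannot give p below 0.125. The members' median was 10.00 as deposited (9.10 for all detected genes), 7.62 over detected members and 6.81 as a mean (6.78 for all detected genes), and 7.32 to 7.44 with a library left out. The median share of the leading gene (74.8%) was 67.3% as deposited, 76.3% with the longest transcript and 74.3 to 75.3% with a library left out. Members beyond the spread trend numbered 4 of 36 at a robust z above 2, beside 8.85% of all detected genes. With a library left out they numbered 0 to 2, beside 3.03 to 4.45% of all detected genes. Members far higher in library 4 numbered 2 at a mean of at least 50, beside 3.35% of all such genes. No paired analysis was possible because the libraries form 1 group, so no other group shares their replicate numbers (the sign-flip test pairs genes, not groups). The unknown depth and normalisation limit statements on the lowest genes, above all Tead3, Wwc1, Fjx1 and Ankrd1.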

Other observations

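Further Hippo regulators also differed between related genes, as described here for genes chosen after their values were seen. Of the kinases related to Map4k4, Map4k2 stood at 1223 ± 37.4 normalised read counts per kb (SD, n = 4), Map4k5 at 1133 ± 39.4 and Map4k3 at 921 ± 59.4, whereas Map4k1 was at 71.8 ± 8.04 and Tnik at 9.43 ± 3.54. Of the LATS-related kinases, Stk38 was at 650 ± 18.4 per kb and Stk38l at 136 ± 9.12. Subunits of STRIPAK, the phosphatase complex that acts on STK3 and STK4, were likewise uneven, with Strn4 at 1029 ± 63.2 per kb and Strn3 at 1011 ± 15.7 beside Strn at 152 ± 7.26. Of the giant cadherins listed, Dchs1 was at 125 ± 14.3 per kb, Fat4 at 36.0 ± 3.63 and Fat1 at 5.81 ± 2.00. These levels depend on length. As deposited, Dchs1 had a mean of 1343 normalised read counts, Fat4 of 580 and Fat1 of 87. The tight junction protein Tjp1 was at 1235 ± 87.2 per kb.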
